A study of Vitis vinifera with 42 samples.

Results

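The 8 genes described here are listed under the first 3 steps of phenylpropanoid metabolism in Cabernet Sauvignon grape berries, with 2 genes annotated as phenylalanine ammonia-lyase (PAL), 2 as cinnamate 4-hydroxylase (C4H) and 4 as 4-coumarate:CoA ligase (4CL). They are 8 of the 28940 genes measured, and they were picked by their identifiers from the PAL, C4H and 4CL families because their FPKM in bagged berries had been seen to differ from that in light-exposed berries of these same libraries. FPKM counts fragments per kilobase of transcript, scaled to the mapped total of each library, so levels can be set side by side between genes. Since the bagged and light values chose the genes, they are given below as a description with no test, and only steps between stages within 1 treatment are tested.

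All libraries are from own-rooted vines of 1 cultivar in 1 vineyard, and RNA was taken from deseeded berries in 1 season. Control clusters (T2) hung in the light. T1 clusters were enclosed in a black-lined kraft paper bag from 3 weeks after flowering, when berries were of pepper-corn size (stage E-L 29), and stayed covered up to harvest (E-L 38), and T8 clusters were bagged at the onset of colouring (E-L 35) and uncovered at intermediate sugar content (E-L 36). T2 was sequenced at E-L 29 and at E-L 31, when berries were still green, at E-L 35, and at the ripening stages E-L 36, 37 and 38, T1 at the 5 stages from E-L 31 on and T8 at the 3 stages from E-L 36 on, which gives 18, 15 and 9 libraries in 14 groups of 3 biological replicates, each from 50 pooled berries. All libraries from E-L 31 on took part in the choice. Every tested step ends in such libraries, that from E-L 29 to 31 in T2 included, so none is independent of the choice. The steps that set bagged libraries against T2 libraries of the stage before, from E-L 29 (T2) to 31 in T1 and from E-L 35 (T2) to 36 in T8, are also given as a description.

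PAL removes ammonia from phenylalanine to give cinnamic acid, C4H adds a hydroxyl group to form p-coumaric acid, and 4CL joins the acid to coenzyme A. The resulting p-coumaroyl-CoA feeds lignin precursors, stilbenes and, through chalcone synthase (CHS), all flavonoids of the berry, including tannins of the young fruit and anthocyanins of the ripening skin. PAL and 4CL are encoded by several genes in grapevine, and many of them are known to respond to light, wounding and pathogens.

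The annotation deposited with the values was checked against the names. Both PAL genes, VIT_206s0004g02620 and VIT_213s0019g04460, carry the orthology term and the function of phenylalanine ammonia-lyase, and the C4H genes VIT_206s0004g08150 and VIT_211s0065g00350 carry that of cinnamate 4-monooxygenase. Of the 4CL genes, VIT_211s0052g01090 and VIT_216s0039g02040 are annotated with 4-coumarate-CoA ligase activity, although the deposited best protein match of VIT_216s0039g02040 is named as a proteasome subunit in a low-quality model. VIT_206s0061g00450 has the same orthology term, but its gene ontology terms are fatty-acyl-CoA synthesis and jasmonic acid biosynthesis. VIT_202s0025g03660 matches the orthology group with only 199 bits, through the gene of VIT_206s0061g00450, and its gene ontology function is oxalate-CoA ligase. The last 2 are therefore 4CL genes by orthology term only. The word light-responsive was checked as well. Bagged and light berries differed by 2-fold or more on the log2(FPKM + 1) scale in 1 or more of 8 comparisons for 5 of the 8 genes, and in none for 3, namely VIT_206s0061g00450, VIT_202s0025g03660 and the C4H gene VIT_211s0065g00350.

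Between 21090 and 23537 genes were above 0 in a library. Replicates of a group correlated at r = 0.936 to 0.985 across genes, which are not independent replicates. In the 3 groups with the lowest correlations 1 library stood apart from the other 2, namely T2 E-L 29 replicate A (0.947 with both), T2 E-L 31 replicate C (0.958 and 0.965) and T1 E-L 31 replicate B (0.936 and 0.944). The larger values that rest on them are given again without all 3, a choice made after seeing the data. Seed transcripts were not absent from these deseeded samples. The summed FPKM of 13 tested seed storage and late embryogenesis genes was 1011, 759 and 9900 in T2 replicates A, B and C at E-L 31 and 10317, 46135 and 30984 in T1. Low sums rest largely on 1 gene, VIT_215s0046g02110, annotated as late embryogenesis protein Lea14-A. Its T2 mean was 287.6 FPKM at E-L 29, where the mean sum of the 13 was 358.1, and 574.8 at E-L 31. In whole fruit tissue, fewer cells of a type and less RNA per cell cannot be told apart.

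**Figure D1:**
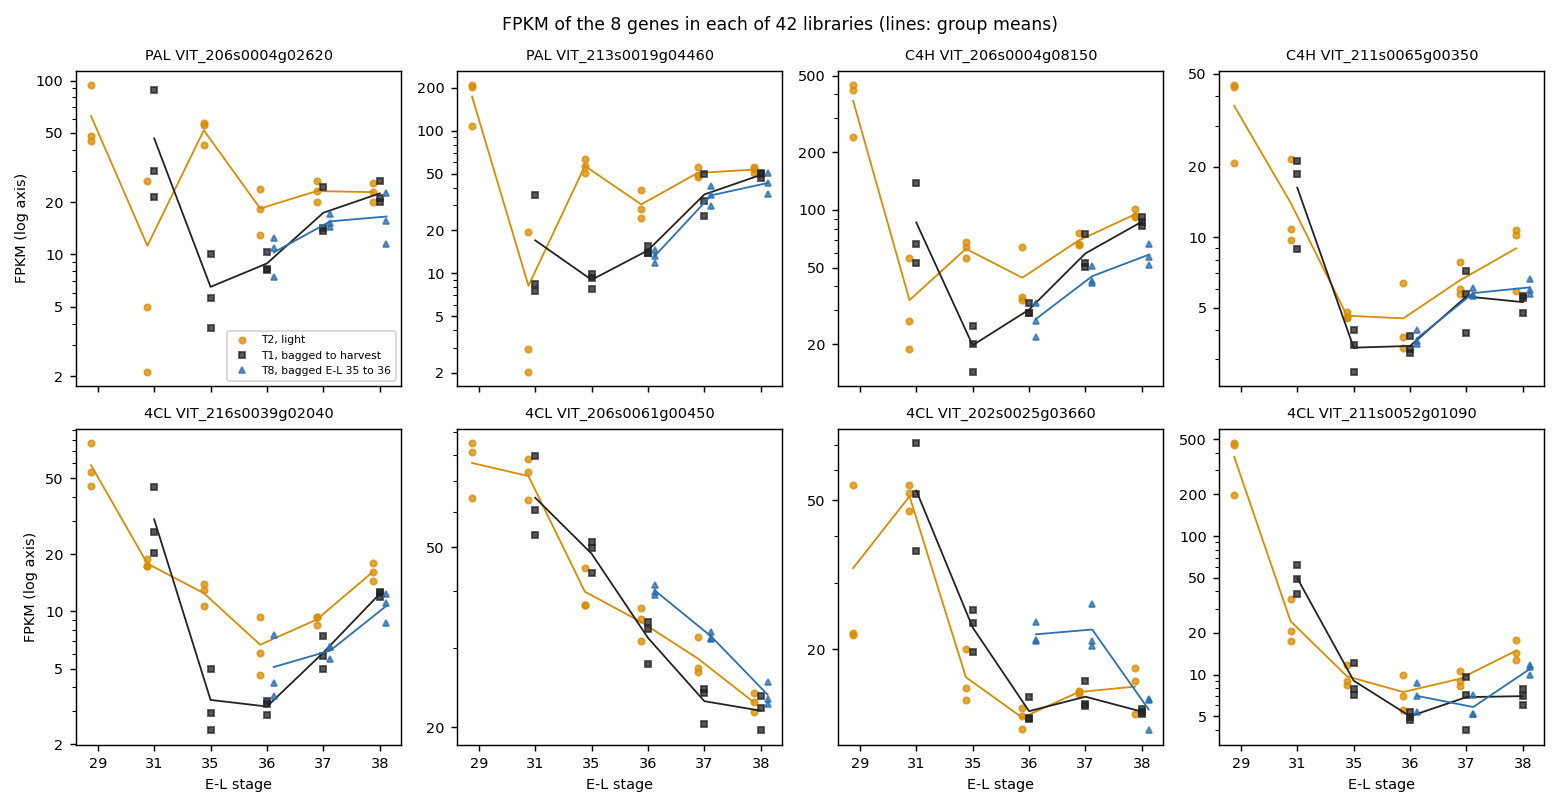
FPKM on a log axis (vertical) against E-L stage (horizontal) for each of the 8 genes. Points are libraries of T2, T1 and T8 and lines join group means of 3 libraries. C4H VIT_206s0004g08150 and 4CL VIT_211s0052g01090 reach the highest means, 369.4 and 373.2 FPKM at E-L 29, and both PAL genes in T2 dip at E-L 31 and are high again at E-L 35.

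PAL VIT_206s0004g02620 had 94.28, 44.98 and 48.27 FPKM in the light-exposed replicates A, B and C at E-L 29. At E-L 31 it had 5.0, 2.12 and 26.57, and at E-L 35 it had 55.81, 57.05 and 42.49. The groups at E-L 31 and 35 did not overlap, nor did those at E-L 29 and 31, and replicate C at E-L 31 was over 5 times as high as either of the others. With limma the gene fell by 2.90 ± 0.47 (log2 fold change ± SE) from E-L 29 to 31 (adjusted p = 5.46e-06), rose by 2.71 ± 0.47 to E-L 35 (adjusted p = 1.58e-05) and fell by 1.47 ± 0.47 to E-L 36 (adjusted p = 0.0239). The last call was lost when any 1 of 4 libraries was left out, T2 E-L 35 replicate A or B or T2 E-L 36 replicate B or C (adjusted p from 0.0545 to 0.113). From E-L 36 on T2 means were 18.4 ± 5.4, 23.1 ± 3.17 and 22.8 ± 2.96 FPKM (SD, n = 3), and neither step passed the test.

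In T1 the same PAL gene had 21.42, 87.78 and 30.37 FPKM at E-L 31 against 3.79, 5.63 and 10.12 at E-L 35. T1 replicate B at E-L 31, the library with the most seed transcripts, was the highest of its group, and T2 replicate C, the light library with the most seed transcripts, was the highest of T2. The part of seed tissue in this was not tested. The step from E-L 31 to 35 in T1 was a fall by 2.49 ± 0.47 (adjusted p = 5.91e-05), opposite in sign to that in T2. The difference between the steps was not tested, since it is made of the bagged and light values that chose the genes. T1 means then were 8.88 ± 1.21, 17.4 ± 5.99 and 22.5 ± 3.44 at E-L 36, 37 and 38, with no step past the threshold. T8 had 12.52, 7.45 and 10.86 FPKM at E-L 36, all below the 3 T2 libraries of E-L 35, with a log2 fold change of -2.24 ± 0.47 from that stage, and then means of 15.5 ± 1.34 and 16.5 ± 5.51.

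PAL VIT_213s0019g04460 had the higher mean of both PAL genes in 12 of the 14 groups, all but T2 and T1 at E-L 31. It had 108.82, 209.72 and 202.17 FPKM in T2 at E-L 29 and only 2.04, 2.92 and 19.55 at E-L 31. At E-L 35 it was at 56.20, 63.01 and 50.91. All 3 groups were apart from one another, and the lowest replicate at E-L 29 was A, the library that correlated least with its group. It fell by 4.74 ± 0.43 (adjusted p = 8.29e-11) from E-L 29 to 31, a decrease of the mean by a factor of 21.2, and rose by 3.2 ± 0.43 to E-L 35 (adjusted p = 2.44e-07). T2 means at E-L 36, 37 and 38 were 30.4 ± 7.18, 50.6 ± 4.5 and 53.4 ± 2.68 FPKM.

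T1 berries held 7.51, 35.16 and 8.42 FPKM of VIT_213s0019g04460 at E-L 31 against 7.80, 9.30 and 9.90 at E-L 35. From E-L 29 in T2 to E-L 31 in T1 the log2 fold change was -3.55 ± 0.43, whereas the step to E-L 35 was not called (log2 fold change -0.52 ± 0.43, adjusted p = 0.35). The gene rose in T1 from 14.5 ± 1.01 at E-L 36 to 35.7 ± 12.9 at E-L 37, by 1.19 ± 0.43 (adjusted p = 0.037), a call that was lost without any 1 of 5 libraries, each one but T1 E-L 37 replicate C (adjusted p up to 0.175), and with a pseudocount of 0.1 (0.0505), no filter (0.0507) or median-of-ratios scaling (0.0595). In T8 the log2 fold change from E-L 35 (T2) to E-L 36 was -2.02 ± 0.43, and the gene rose by 1.34 ± 0.43 from 13.2 ± 1.37 at E-L 36 to 35.2 ± 5.65 at E-L 37, after the bags were removed (adjusted p = 0.0188, and 0.0615 and 0.0675 without T8 E-L 36 replicate B or T8 E-L 37 replicate C). At harvest the means of T2, T1 and T8 were 53.4, 49.0 and 43.0 FPKM.

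C4H VIT_206s0004g08150 had the highest mean of the 8 genes in 9 of 14 groups. Its FPKM in T2 at E-L 29 was 240.43, 446.62 and 421.15, and at E-L 31 it was 26.57, 18.83 and 56.43. It fell by 3.5 ± 0.30 between these stages (adjusted p = 1.32e-11), followed by a rise by 1.01 ± 0.30 (adjusted p = 0.00504) to 63.89, 68.07 and 56.37 at E-L 35. The latter groups overlapped narrowly, since T2 E-L 31 replicate C stood at 56.43 and T2 E-L 35 replicate C at 56.37, and the call was lost without T2 E-L 31 replicate B (adjusted p = 0.0753). T2 means at E-L 36, 37 and 38 were 44.4 ± 16.9, 69.4 ± 5.43 and 94.9 ± 4.94, with no step called. In T1 the gene had 52.94, 138.55 and 66.64 FPKM at E-L 31 against 14.41, 20.07 and 24.86 at E-L 35, a fall by 1.97 ± 0.30 (adjusted p = 1.7e-06). Its means in T1 then were 30.3 ± 2.12, 59.4 ± 13.4 and 86.8 ± 4.82, with a rise by 0.93 ± 0.30 between E-L 36 and 37 (adjusted p = 0.0166) that was lost without T1 E-L 36 replicate B or T1 E-L 37 replicate B (adjusted p = 0.0507 and 0.0985). T8 at E-L 36 stood at a log2 fold change of -1.20 ± 0.30 from T2 at E-L 35.

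The other C4H gene, VIT_211s0065g00350, was expressed at a lower level. It had 20.70, 44.77 and 43.87 FPKM in T2 at E-L 29, then 10.85, 9.69 and 21.63 at E-L 31 against 4.56, 4.50 and 4.79 at E-L 35. It fell at both steps, by 1.32 ± 0.28 (adjusted p = 1.82e-04) and 1.34 ± 0.28 (adjusted p = 1.51e-04). T1 fell in the same way, from 21.27, 8.86 and 18.69 FPKM at E-L 31 to 2.66, 3.99 and 3.46 at E-L 35, by 1.91 ± 0.28 (adjusted p = 1.03e-06). No later step was called in any treatment, and the means of those groups lay between 3.37 and 8.96 FPKM.

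4CL VIT_211s0052g01090 had the largest range of the 8 genes. It stood at 197.80, 465.43 and 456.44 FPKM in T2 at E-L 29, then 17.43, 20.58 and 35.01 at E-L 31 against 9.07, 8.48 and 11.68 at E-L 35. The groups did not overlap, and the falls were 3.84 ± 0.28 (adjusted p = 2.88e-13) and 1.19 ± 0.28 (adjusted p = 5.76e-04). T1 fell from 48.97, 61.65 and 38.27 at E-L 31 to 7.10, 12.13 and 7.94 at E-L 35, by 2.34 ± 0.28 (adjusted p = 2.43e-08). The highest group mean, at E-L 29, was 74.4 times the lowest, 5.01 ± 0.352 FPKM in T1 at E-L 36. T8 rose by 0.82 ± 0.28 from E-L 37 to 38 (adjusted p = 0.0256), which was lost without any 1 of 4 libraries (adjusted p from 0.0665 to 0.087).

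4CL VIT_216s0039g02040 was called at more steps within a treatment than any other of the 8 genes, 7 of 11. It had 76.32, 45.44 and 54.19 FPKM in T2 at E-L 29, then 17.31, 18.78 and 17.37 at E-L 31 against 13.84, 12.91 and 10.63 at E-L 35. It fell by 1.63 ± 0.24 to E-L 31 (adjusted p = 7.68e-07) and by 0.85 ± 0.24 from E-L 35 to 36 (adjusted p = 0.00891), the latter only with T2 E-L 36 replicate C (adjusted p = 0.086 without it). In T1 it had 20.23, 44.92 and 26.25 at E-L 31 against 2.37, 2.92 and 4.97 at E-L 35, a fall by 2.80 ± 0.24 (adjusted p = 2.29e-11). T1 rose by 0.75 ± 0.24 from E-L 36 to 37 (adjusted p = 0.0151), which was lost without T1 E-L 36 replicate A or T1 E-L 37 replicate B (adjusted p = 0.0522 and 0.0878). The gene rose toward harvest in all 3 treatments. From E-L 37 to 38 the increase was 0.77 ± 0.24 in T2 (adjusted p = 0.0149), 0.93 ± 0.24 in T1 (adjusted p = 0.0025) and 0.69 ± 0.24 in T8 (adjusted p = 0.0277), but the T2 call was lost without replicate A of either stage (adjusted p = 0.0508 and 0.0645) and the T8 call without any 1 of 4 libraries (adjusted p up to 0.111).

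4CL VIT_206s0061g00450 went down through development with little difference between replicates. Its T2 means were 76.8 ± 11, 71.9 ± 7.43, 39.9 ± 4.41, 34.2 ± 2.95, 28.4 ± 2.79 and 22.7 ± 1.11 FPKM from E-L 29 to 38, with 1 called step, a fall by 0.83 ± 0.12 from E-L 31 to 35 (adjusted p = 4.46e-07). T1 means went from 64.4 ± 13.7 at E-L 31 over 48.4 ± 3.92, 31.5 ± 3.48 and 22.8 ± 2.19 to 21.8 ± 1.91 at harvest, and T8 means from 40.1 ± 1.01 over 31.8 ± 0.616 to 23.6 ± 1.35. The first 3 of the 4 T1 steps and both T8 steps after E-L 36 were called falls, of 0.33 to 0.61 on the log2 scale. The fall in T8 from E-L 36 to 37 was lost without any 1 of its 6 libraries (adjusted p from 0.0564 to 0.0925), and the fall in T1 from E-L 31 to 35 without T1 E-L 31 replicate A (adjusted p = 0.117) or with median-of-ratios scaling of the libraries (0.103).

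4CL VIT_202s0025g03660 was the only 1 of the 8 to rise from E-L 29 to 31 in T2, by 0.75 ± 0.21 (adjusted p = 0.0031). Its values were 54.73, 21.90 and 22.10 FPKM at E-L 29 against 52.16, 46.69 and 54.68 at E-L 31, so the groups overlapped through replicate A of E-L 29. It then fell by 1.56 ± 0.21 to 14.68, 15.78 and 20.08 at E-L 35 (adjusted p = 1.96e-07). T1 showed the same course, with a mean of 53.0 ± 17.1 at E-L 31 and falls by 1.14 ± 0.21 to E-L 35 (adjusted p = 3.63e-05) and by 0.70 ± 0.21 to E-L 36 (adjusted p = 0.0119, and 0.0599 without T1 E-L 35 replicate B). T8 kept 21.9 ± 1.46 and 22.6 ± 3.29 FPKM at E-L 36 and 37 and fell by 0.67 ± 0.21 to 13.8 ± 1.44 at harvest (adjusted p = 0.0158, and 0.0846 and 0.0712 without T8 E-L 37 replicate C or T8 E-L 38 replicate C).

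Counted over the 8 genes, the early steps held most of the calls, at an adjusted p under 0.05 whatever the fold. In T2, 7 of 8 were called from E-L 29 to 31, where 50.5% of the 21902 tested genes were, and 7 of 8 from E-L 31 to 35 (48.2% of all). The later steps gave 2 (21.5% of all), 0 (33.6%) and 1 (25.8%). T1 gave 7 from E-L 31 to 35 (46.5%), then 2 (26.7%), 4 (28.9%) and 1 (30.7%). T8 gave 2 from E-L 36 to 37 (28.4%) and 4 to E-L 38 (27.9%). At the 2 steps given as a description, 6 of 8 from E-L 29 (T2) to 31 in T1 (45.1% of all) and 4 of 8 from E-L 35 (T2) to 36 in T8 (24.9%) were past the same threshold, and nothing is read from these counts. From E-L 29 in T2 to E-L 31 in T1 the log2 fold change was -2.16 ± 0.30 for C4H VIT_206s0004g08150, -2.81 ± 0.28 for 4CL VIT_211s0052g01090 and -0.60 ± 0.47 for PAL VIT_206s0004g02620. The median log2 fold change of the 8 genes was -2.27 from E-L 29 to 31 in T2, beside -0.12 over all tested genes.

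Without the 3 libraries that stood apart, the calls of the 8 genes at the first 2 steps of T2 and from E-L 31 to 35 in T1 stayed as they were. From E-L 29 to 31 in T2 the log2 fold changes then were -3.46 and -5.91 for PAL VIT_206s0004g02620 and VIT_213s0019g04460, -4.22 and -2.01 for C4H VIT_206s0004g08150 and VIT_211s0065g00350, and -4.53, -1.41 and 1.13 for 4CL VIT_211s0052g01090, VIT_216s0039g02040 and VIT_202s0025g03660. From E-L 31 to 35 in T2 the PAL genes stood at 3.60 and 4.06 and C4H VIT_206s0004g08150 at 1.44. From E-L 31 to 35 in T1 they stood at -1.91, 0.15 and -1.57, so that the uncalled value of PAL VIT_213s0019g04460 was above 0. Fitted on the 2 groups of a step alone, 5 calls within a treatment were lost. In T2 these were C4H VIT_211s0065g00350 and 4CL VIT_202s0025g03660 from E-L 29 to 31 (adjusted p = 0.0571 and 0.163), C4H VIT_206s0004g08150 from E-L 31 to 35 (0.0946) and 4CL VIT_216s0039g02040 from E-L 35 to 36 (0.0747). In T1 it was 4CL VIT_206s0061g00450 from E-L 31 to 35 (0.132). Where limma called none of the 8, between E-L 36 and 37 in T2, 2 had an unadjusted p under 0.05.

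**Figure D2:**
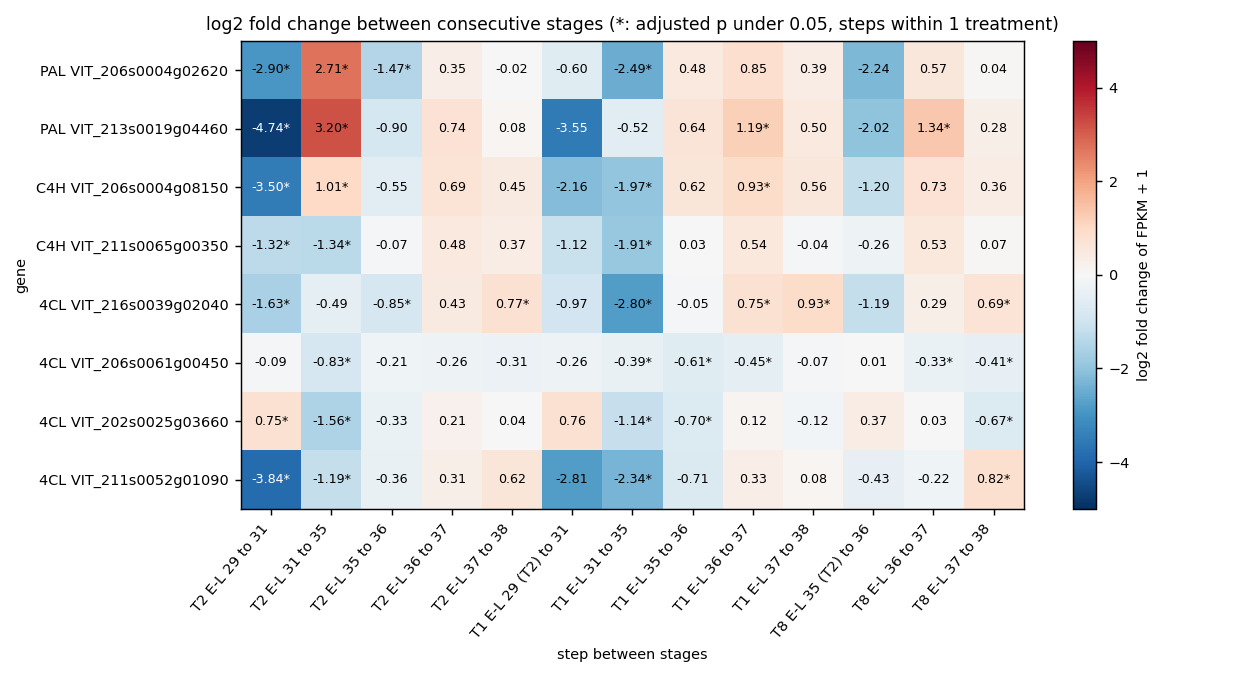
Log2 fold change of FPKM + 1 (colour and number) of each gene (rows) at the 13 steps between consecutive stages (columns), with an asterisk at an adjusted p under 0.05 for the 11 steps within 1 treatment. The first columns of T2 hold the largest values, down to -4.74 for PAL VIT_213s0019g04460, and the step from E-L 31 to 35 has opposite signs in T2 and T1 for PAL VIT_206s0004g02620 and C4H VIT_206s0004g08150. The libraries of E-L 31 and 35 took part in choosing the genes.

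The bagged and light berries were set side by side at each stage, with the values that chose the genes. At E-L 31, after bagging from E-L 29, 4 of the 8 genes were past 2-fold, and all 4 were higher in T1, where 7.15% of all tested genes were past 2-fold in either direction. The log2 fold change was 2.31 ± 0.47 for PAL VIT_206s0004g02620, 1.19 ± 0.43 for PAL VIT_213s0019g04460, 1.34 ± 0.30 for C4H VIT_206s0004g08150 and 1.03 ± 0.28 for 4CL VIT_211s0052g01090. The T1 and T2 libraries of both PAL genes and of the C4H gene overlapped, and those of 4CL VIT_211s0052g01090 and VIT_216s0039g02040 (0.67 ± 0.24) did not, as in 31.1% of all tested genes. Without T1 E-L 31 replicate B, the library with 46135 FPKM of seed transcripts, the values of the first 3 genes were 1.73, 0.52 and 0.94. Without T2 E-L 31 replicate C they were 3.2, 2.05 and 1.77, and without both of these and T2 E-L 29 replicate A they were 2.62, 1.38 and 1.37, with 1.15 and 0.34 for these 4CL genes. With the seed marker score, the mean log2 level of the 13 seed genes, as a covariate they were 1.77, 0.84 and 1.06, and 2 of the 8 genes were past 2-fold. The score was 5.03 to 6.47 in T1 and 2.96 to 5.23 in T2, where only replicate C reached the T1 range. Seed tissue and bagging can therefore hardly be told apart by this covariate at E-L 31.

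At E-L 35, 4 of the 8 genes were past 2-fold and all 4 were lower in T1, where 3.22% of all genes were past 2-fold. PAL VIT_206s0004g02620 had a log2 fold change of -2.89 ± 0.47, and PAL VIT_213s0019g04460, C4H VIT_206s0004g08150 and 4CL VIT_216s0039g02040 stood at -2.53 ± 0.43, -1.65 ± 0.30 and -1.64 ± 0.24. The T1 and T2 libraries of all 4 were apart, as were those of C4H VIT_211s0065g00350 (-0.37 ± 0.28) and of 30.7% of all tested genes. The remaining 4CL genes VIT_206s0061g00450, VIT_202s0025g03660 and VIT_211s0052g01090 were at 0.28 ± 0.12, 0.42 ± 0.21 and -0.12 ± 0.28 with overlapping libraries. The count of 4 was the same without any 1 library and with the seed marker score as a covariate, where the 4 values were -3.11, -2.67, -1.76 and -1.69. T1 E-L 35 replicate C, with a seed marker score of 4.94 against 2.06 and 2.32 in replicates A and B, had the highest level of its group for both PAL genes, C4H VIT_206s0004g08150 and 4CL VIT_216s0039g02040. In T2 it was the other way round. T2 E-L 35 replicate C, with a score of 2.88 against 2.07 and 2.04, had the lowest level of its group for the same 4 genes. The part of seed tissue was not tested.

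Fewer of the 8 genes were past 2-fold from E-L 36 on. T1 and T2 libraries did not overlap for 5, 2 and 3 of the 8 genes at E-L 36, 37 and 38, beside 19.6%, 24.1% and 14% of all tested genes. T8 libraries lay below all T2 libraries for 3, 5 and 4 of the 8 at these stages and above for 2, 1 and 0. The share of all tested genes was not computed for T8. C4H VIT_206s0004g08150 was still lower in T8 after bag removal, at -0.61 ± 0.30 at E-L 37 and -0.70 ± 0.30 at harvest, with libraries apart. None of the 8 genes was past 2-fold in T1 at E-L 36 (1.63% of all genes), E-L 37 (1.66%) or E-L 38 (1.47%), and 1 was in T8 at E-L 36 (4.87%), none at E-L 37 (3.33%) and none at E-L 38 (1.31%). PAL VIT_213s0019g04460 in T8 at E-L 36 was the 1 gene, at -1.12 ± 0.43, and T2 E-L 36 replicate A decided it, since none was past 2-fold without that library. At E-L 36 both PAL genes were at -0.94 ± 0.47 and -1.0 ± 0.43 in T1, just short of 2-fold, and 3 genes were past it without T2 E-L 36 replicate C. At harvest they were at -0.03 ± 0.47 and -0.12 ± 0.43 in T1 and at -0.48 ± 0.47 and -0.32 ± 0.43 in T8. The largest difference at harvest was that of 4CL VIT_211s0052g01090 in T1, at -0.99 ± 0.28, with 7.05, 6.03 and 7.94 FPKM against 17.66, 14.25 and 12.82 in T2. 4CL VIT_202s0025g03660 went the other way in T8, with 23.61, 21.04 and 21.13 FPKM at E-L 36 against 13.94, 13.24 and 12.25 in T2 (0.70 ± 0.21). T8 libraries had seed marker scores of 4.97 to 6.16 at E-L 36 and T2 libraries 1.54 to 3.10. With that score as a covariate the T8 values at E-L 36 of the PAL genes and of C4H VIT_206s0004g08150 were -1.79, -1.78 and -1.18 in place of -0.77, -1.12 and -0.65, so that 3 of the 8 genes were past 2-fold. As the scores of T8 and T2 did not overlap, seed tissue and bagging cannot be told apart by this covariate.

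**Figure D3:**
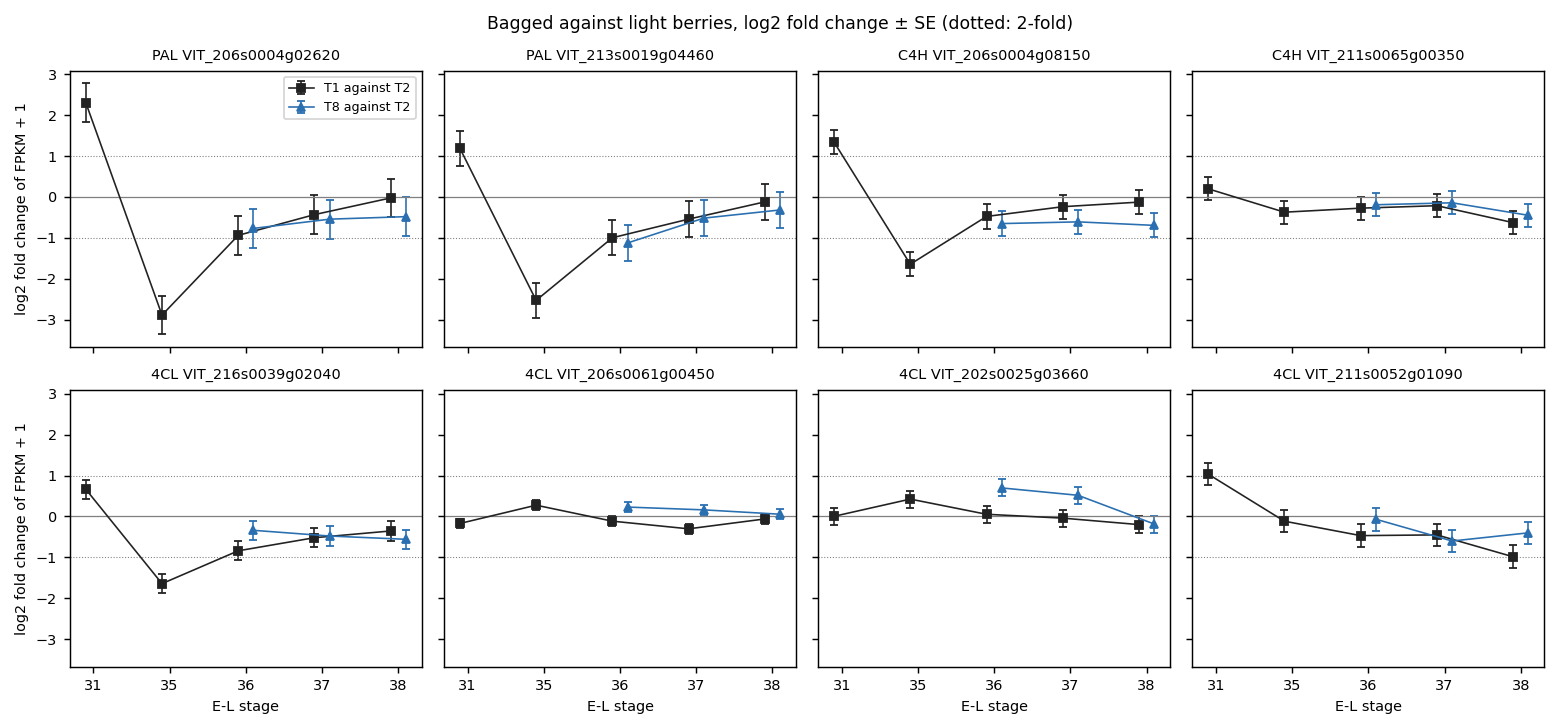
Log2 fold change of FPKM + 1 against T2 at the same E-L stage (horizontal) for T1 and T8, with bars of 1 SE from the fit over 42 libraries and dotted lines at 2-fold. Both PAL genes, C4H VIT_206s0004g08150 and 4CL VIT_216s0039g02040 are above 0 at E-L 31 and at -1.64 or lower at E-L 35, and in T1 they lie between -0.36 and -0.03 at E-L 38.

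The order of the 14 group means was dominated by E-L 29. T2 at E-L 29 ranked first for 7 of the 8 genes, and T1 at E-L 31 ranked first for 4CL VIT_202s0025g03660. The lowest group was T1 at E-L 35 for PAL VIT_206s0004g02620 and both C4H genes, T1 at E-L 36 for 4CL VIT_216s0039g02040 and VIT_211s0052g01090, T2 at E-L 31 for PAL VIT_213s0019g04460, T1 at E-L 38 for VIT_206s0061g00450 and T2 at E-L 36 for VIT_202s0025g03660. Most neighbours in that order overlapped. Of 13 neighbouring pairs, none were apart for PAL VIT_206s0004g02620 and C4H VIT_211s0065g00350, 1 for VIT_202s0025g03660, 2 for PAL VIT_213s0019g04460 and C4H VIT_206s0004g08150, 3 for VIT_216s0039g02040 and VIT_211s0052g01090 and 4 for VIT_206s0061g00450. The highest mean was 3.53 times the lowest for VIT_206s0061g00450, 4.03 times for VIT_202s0025g03660 and between 9.6 and 74.4 times for the other 6.

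The courses of the 8 genes over the 42 libraries were compared by Pearson's r of log2(FPKM + 1), as a description, since libraries of a stage share development. PAL VIT_206s0004g02620 and VIT_213s0019g04460 correlated with C4H VIT_206s0004g08150 at r = 0.82 and 0.84 and with each other at 0.76. C4H VIT_211s0065g00350 and 4CL VIT_211s0052g01090 correlated at 0.91, and each with 4CL VIT_216s0039g02040 at 0.83 and 0.85. VIT_202s0025g03660 and VIT_206s0061g00450 correlated at 0.79 with each other and at 0.03 and 0.04 with PAL VIT_206s0004g02620.

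Among all other tested genes, those most like each of the 8 over the 42 libraries were listed by r. For PAL VIT_206s0004g02620 they were the CHS gene VIT_214s0068g00920 (r = 0.89), the flavanone 3-hydroxylase (F3H) gene VIT_204s0023g03370 (0.87) and VIT_208s0040g00440 (0.84). For PAL VIT_213s0019g04460 they were an aldehyde dehydrogenase (VIT_204s0023g02810, 0.91), VIT_206s0009g01410 (0.87) and a 3-hydroxyisobutyryl-CoA hydrolase (VIT_212s0028g00590, 0.85). The last was also first for C4H VIT_206s0004g08150 (0.94), followed by VIT_200s0391g00070 (0.91), which encodes the entry enzyme of the shikimate pathway, and a protein kinase (VIT_206s0004g01780, 0.90). For 4CL VIT_211s0052g01090 they were another PAL gene, VIT_208s0040g01710 (0.96), the shikimate pathway gene of 5-enolpyruvylshikimate-3-phosphate synthase (VIT_215s0048g00350, 0.96) and VIT_217s0000g05060 (0.95). For C4H VIT_211s0065g00350 the first was a coniferyl-alcohol glucosyltransferase (VIT_218s0041g00710, 0.91), and for 4CL VIT_216s0039g02040 VIT_218s0001g12340 of no named function (0.88). VIT_206s0061g00450 was most like a disease resistance gene (VIT_213s0064g00410, 0.97) and VIT_202s0025g03660 most like VIT_207s0031g02610 (0.95).

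The 8 genes were then weighed within their families as the study lists them, which hold 21 PAL, 3 C4H and 10 4CL genes. The 2 PAL genes held 37.40%, 24.27% and 24.39% of the summed PAL FPKM in T2 at E-L 29 against 7.61%, 5.66% and 23.51% at E-L 31. They held 78.14%, 80.31% and 59.68% at E-L 35 and 75.31% to 79.48% at harvest. In T1 they held 34.94%, 38.01% and 48.12% at E-L 35 and in T8 31.44% to 35.69% at E-L 36, below each T2 library of E-L 35 or 36 respectively. At harvest the T1 share was 83.31% to 95.97%, above each T2 library. It was 42.69% to 54.89% in T1 at E-L 36, which overlapped the 43.18% to 49.77% of T2. The groups also overlapped at E-L 31 and 37 in T1 and at E-L 37 and 38 in T8. These shares are a description, since bagged and light values chose the genes. The summed PAL level itself was 143.35 to 156.50 FPKM in T2 and 33.17 to 41.60 in T1 at E-L 35. Reads of 50 bases can match more than 1 PAL gene, and how such reads were counted is not given in the sources used here, so the split between PAL genes is uncertain.

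Another PAL gene, VIT_208s0040g01710, was the most abundant PAL at E-L 29, with a mean of 555.3 FPKM, and fell by 5.11 ± 0.49 to 16.3 at E-L 31 (adjusted p = 2.16e-10). The 2 C4H genes held 95.56% to 100% of the C4H level in all 42 libraries. The 4 4CL genes held 94.26% to 96.13% of the 4CL level at E-L 29, 52.85% to 56.98% in T2 at E-L 35 and 39.43% to 43.74% in T2 at harvest. Most of the rest was VIT_216s0050g00390, annotated as a peroxisomal CoA synthetase of the 4CL orthology group, whose mean in T2 went from 24.5 FPKM at E-L 29 to 96.8 at harvest. In T1 at harvest the 4 genes held 31.84% to 33.66%.

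**Figure D4:**
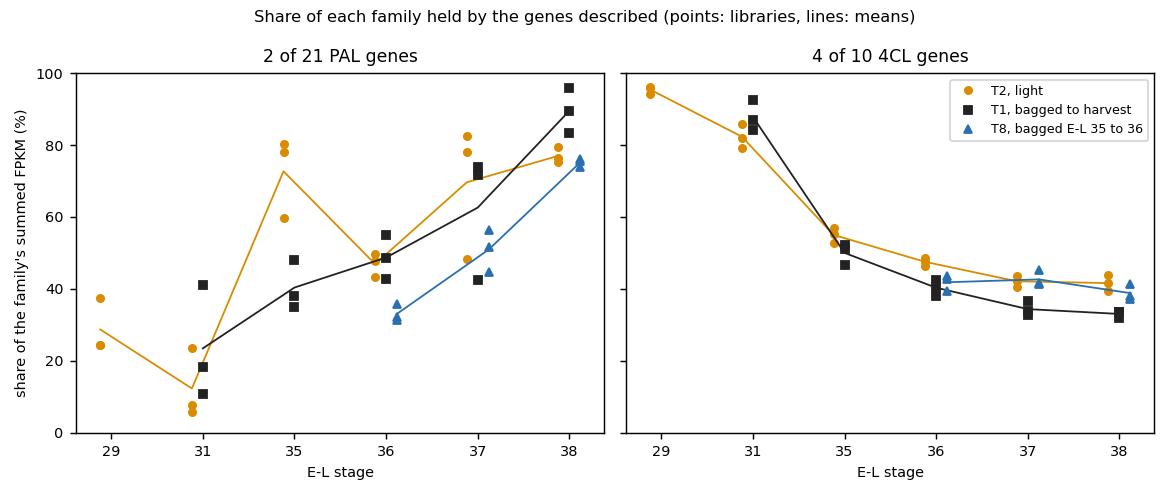
Percentage of the summed FPKM of the 21 PAL genes (left) and 10 4CL genes (right) held by the genes described, against E-L stage. Points are libraries and lines join means of 3. The PAL share in T2 goes from 5.66% in 1 library of E-L 31 to 80.31% in 1 of E-L 35, and the 4CL share goes down from 96.13% at E-L 29.

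The remaining genes of the pathway were counted with limma at an adjusted p under 0.05, from lists of the study's gene families and of annotation terms. Of all tested genes, 29.1% were called between T1 and T2 at E-L 31, 11.7% at E-L 35 and, between T8 and T2, 11.9% at E-L 36. Fitted on the 2 groups alone, 457 genes in place of 6365 were called at E-L 31, so the counts at that stage rest on the spread shared by all groups. The other PAL, C4H and 4CL genes are those left after the 8 were picked by their bagged and light values. Their counts in these comparisons are therefore not independent of that choice. Of 15 other tested PAL genes, 4 were higher and none lower in T1 at E-L 31, and none was called at E-L 35 (0 at an unadjusted p under 0.05) or in T8 at E-L 36 (1). The largest were VIT_211s0016g01640 and VIT_211s0016g01520, at 0.52 and 1.76 FPKM in T2 and 3.59 and 6.99 in T1. The third C4H gene, VIT_211s0078g00290, fell from 8.33 to 1.14 FPKM between E-L 29 and 31 in T2 (adjusted p = 1.5e-05) and was called in none of these bag comparisons (0 at an unadjusted p under 0.05). Of 2 other tested 4CL genes, 1 was higher in T8 at E-L 36 and none was called in T1, where 1 had an unadjusted p under 0.05 at each stage.

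Genes that use p-coumaroyl-CoA were described in the same way. Of 13 tested CHS, chalcone isomerase and F3H genes, 4 were higher in T1 at E-L 31 (median log2 fold change 0.51) and 6 were lower at E-L 35 (median -0.40), with all tested genes at 0 in both. CHS VIT_214s0068g00920 was at 50.3 FPKM in T2 and 221.1 in T1 at E-L 31 (2.33 ± 0.50) and at 247.6 and 42.3 at E-L 35 (-2.65 ± 0.50). These values are a description, since the gene was named for the largest fold change of its list. The study also reported it as changed at both stages in these samples. Of 42 stilbene synthase genes, the enzymes of resveratrol synthesis, 11 were higher at E-L 31, where 29.1% of all tested genes were called. None was called at E-L 35 (4 at an unadjusted p under 0.05), where 11.7% of all were. In T2, 22 rose from E-L 29 to 31 and none fell, at a step where 50.5% of all tested genes were called. Nothing is read from how many were called at E-L 31 or at that step. Of 25 cinnamoyl-CoA reductase genes, 5 were higher and 2 lower at E-L 31 and 2 higher and 1 lower at E-L 35, and of 18 cinnamyl-alcohol dehydrogenase genes, 2 were higher and 1 lower and then 0 higher and 1 lower. Both act on the way to lignin.

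Upstream, 19 of 27 tested genes of the shikimate pathway and phenylalanine synthesis fell and 2 rose from E-L 29 to 31 in T2, where 50.5% of all tested genes were called. The median of the 27 was -0.51 beside -0.12 for all genes. At E-L 31 10 of them were higher and 3 lower in T1 (29.1% of all tested genes called), and at E-L 35 1 was higher and 4 lower (11.7%). VIT_200s0391g00070, which encodes the entry enzyme of that pathway, fell from 169.2 to 45.4 FPKM between E-L 29 and 31 (adjusted p = 2.55e-12). The list of regulators of phenolic genes named in the study, HY5 and HYH included, held 18 tested genes. Of these, 2 were higher and 3 lower in T1 at E-L 31, and 2 were higher and 5 lower at E-L 35. The study singled out several of them in these samples, HY5 and HYH included, so the counts are a description. Among them VIT_205s0020g01090, assigned by the study to HYH, a homolog of the light-signalling factor HY5, but matched in the deposited annotation to a regulatory protein of TOR, was at 10.97 FPKM in T2 and 1.29 in T1 at E-L 31 and at 9.0 and 0.12 at E-L 35. Its log2 fold changes, -2.37 ± 0.24 and -3.16 ± 0.24, are a description, since the study singled the gene out in these samples.

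Marker lists moved with the groups. Of 21 tested light-harvesting genes, 18 were lower and none higher in T1 at E-L 31, and 13 lower at E-L 35. Their score, a mean log2 level, was 4.25 to 4.87 in T2 and 2.71 to 2.92 in T1 at E-L 31. Of 13 seed genes, 7 were higher and 2 lower in T1 at E-L 31, 1 was higher at E-L 35 and 9 were higher in T8 at E-L 36. Of the 20 seed genes listed, 7 did not pass the filter of a group mean of 1 FPKM. UFGT VIT_216s0039g02230, which glucosylates anthocyanidins in coloured skin, was at 89.62 to 91.40 FPKM in T2 and 27.56 to 34.52 in T1 at E-L 35. At E-L 36 the groups overlapped, at 51.00 to 69.60 FPKM in T2 and 49.61 to 58.05 in T1. Both PAL genes were below every T2 library in T1 at both of these stages.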

How the data were processed

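Single-end reads of 50 bases from poly(A) RNA were aligned by the authors to version 2 of the PN40024 genome, allowing up to 2 mismatches, with Bowtie per the study's methods and Bowtie2 2.2.5 per the submitters' processing notes. The authors deposited FPKM per gene and library, rounded to 2 decimals and summing to 561036 to 672526 per library. The counting tool is not given in the sources used here, and without counts no interval for counting error is given. Precision rests on 3 replicates.

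Values were taken as log2(FPKM + 1), on which fold changes of low genes are understated. Genes were kept where some group mean reached 1 FPKM, 21902 of 28940, and all 8 genes described were kept. One limma 3.58.1 fit (R 4.3.3) of 14 group means over 42 libraries, with a mean-variance trend, gave two-sided p-values, adjusted by Benjamini-Hochberg over genes within a comparison. Called means an adjusted p under 0.05. The fit was tested on simulated data for T1 against T2 at E-L 31 (21902 genes, 200 changed). Errors were drawn as normal, with a spread per gene that was the same in all groups. Under that setting it called 85% of 2-fold and 97% of 4-fold changes, with 15 false calls. The real T1 replicates at E-L 31 correlated as low as r = 0.936. Fitted on the 2 groups alone, 457 genes in place of 6365 were called. The simulation left out such unequal spread, so it cannot tell how reliable the real calls at E-L 31 are. The limma design replaces the NOISeq test of the study. Replicates are biological, with groups from the labels.

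The 8 genes, the gene lists and the tests were chosen with earlier results of these data known. Genes outside the 8 were named as the 2 of largest fold in a bag comparison, the 2 of smallest p from E-L 29 to 31, or the 3 most correlated with each of the 8, for those lists where a result turned on them. The alternatives were a pseudocount of 0.1, no filter, median-of-ratios scaling, a fit on the 2 groups alone, a replicate block, the seed marker score as a covariate, leaving out each library, and, chosen after seeing the data, leaving out 3 libraries together. Python 3.11.15, pandas 2.3.3, numpy 2.4.6 and matplotlib 3.10.9 were used. Genome coordinates and sequences were not used here.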

Additional observations from a re-analysis of the deposited data

Results flagged for a closer look

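For 2 of the 4CL genes every T1 library lay above every T2 library at 1 stage and every T1 library lay below at others. VIT_216s0039g02040 had a log2 fold change in T1 against T2 of 0.67 at E-L 31 and of -1.64, -0.84, -0.52 and -0.36 at E-L 35, 36, 37 and 38, with no overlap between the libraries at any of the 5 stages, where 31.1%, 30.7%, 19.6%, 24.1% and 14% of all tested genes had none. VIT_211s0052g01090 had 1.03 at E-L 31, then -0.47 (E-L 36) and -0.99 (E-L 38), again with no overlap, while its libraries overlapped at E-L 35 and 37. The differences between stages were not tested, because these values took part in choosing the genes. Both PAL genes and C4H VIT_206s0004g08150 had larger changes of sign between E-L 31 and 35, but their libraries overlapped at E-L 31.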

How the results depend on the processing

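No member value of log2 fold change past the threshold changed sign in any alternative. The count of called genes moved by over 1.5 times at these stage steps. Fitted on the 2 groups alone, T2 E-L 36 to 37 had 2 in place of 0, T2 E-L 37 to 38 had 4 in place of 1, T1 from E-L 29 to 31 had 3 in place of 6 and T8 E-L 36 to 37 had 4 in place of 2. Median-of-ratios scaling gave 1 for T2 E-L 36 to 37, and a pseudocount of 0.1 and the seed marker score as a covariate gave 2 each for T2 E-L 37 to 38. The replicate block, a term for the replicate letter, left all 21 counts as they were, with 7 of 8 genes called in T2 from E-L 29 to 31, and changed no call of a single gene. The letters share only a name: residuals correlated at 0.00222 between libraries of the same letter and at -0.00108 between other letters, and in 17 of 42 libraries the closest other library had the same letter. Without the 3 libraries that stood apart, a choice made after seeing the data, the 5 counts that use them were 7, 7, 8, 7 and 4.

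Leaving out 1 library at a time gave ranges of 0 to 2 for T2 E-L 35 to 36, 0 to 2 for T2 E-L 36 to 37, 0 to 1 for T2 E-L 37 to 38, 1 to 3 for T1 E-L 35 to 36, 1 to 4 for T1 E-L 36 to 37, 0 to 1 for T8 E-L 36 to 37 and 2 to 3 for T8 E-L 37 to 38. Genes past 2-fold in T1 against T2 numbered 1 to 4 at E-L 31, 0 to 3 at E-L 36 and 0 to 1 at E-L 38, and 0 to 1 for T8 at E-L 36. In T1 at E-L 36 and 38 a pseudocount of 0.1 gave 2 and 1 and the seed covariate 2 and 1, in place of 0. The covariate gave 2 at E-L 31 in T1 in place of 4, where T2 replicate C alone reached the T1 range of scores. In T8, where the seed marker scores did not overlap those of T2, it gave 3 in place of 1 at E-L 36 and 1 in place of 0 at E-L 37. The causes were not tested.

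Over all tested genes, a pseudocount of 0.1 raised the numbers past 2-fold between bagged and light berries by factors of 2.3 to 6.13. Calls in T1 against T2 at E-L 31 numbered 457 in place of 6365 when only those 2 groups were fitted, where those libraries alone set the spread. In the same way T1 had 1688 in place of 2564 at E-L 35, 68 in place of 500 at E-L 36, 82 in place of 849 at E-L 37 and 43 in place of 127 at E-L 38, T8 had 6 in place of 15 at E-L 38, and the steps from E-L 29 to 31 in T2 and T1 and from E-L 31 to 35 in T1 had 7124, 4814 and 6410 in place of 11071, 9872 and 10187. The seed covariate left 717 calls in place of 2609 for T8 at E-L 36, 632 in place of 1236 at E-L 37, 4 in place of 15 at E-L 38 and 2806 in place of 5458 for the step from E-L 35 (T2) to 36. A pseudocount of 0.1 gave 201 calls in place of 127 for T1 and 39 in place of 15 for T8 at E-L 38, and median-of-ratios scaling 526 in place of 849 for T1 at E-L 37. Median-of-ratios scaling moved the median of all genes from -0.22 to -0.06 for T2 E-L 31 to 35, from 0.16 to 0 for T2 E-L 36 to 37 and from -0.21 to -0.10 for T1 E-L 31 to 35.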

Other observations

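Genes annotated as acting between p-coumaroyl-CoA and lignin or other methylated phenolics were also counted, and 75 of 120 were tested. In T2, 36 fell and 8 rose from E-L 29 to 31 (limma, adjusted p under 0.05, median log2 fold change -0.42 beside -0.12 for all genes), where 50.5% of all tested genes were called. In T1 against T2, 9 were higher and 8 lower at E-L 31 (29.1% of all tested genes called), and 4 were higher and 8 lower at E-L 35 (11.7%). VIT_207s0031g00350, annotated as caffeoyl-CoA O-methyltransferase, an enzyme that methylates lignin precursors, was at 32.8 FPKM in T2 and 4.63 in T1 at E-L 35 (-2.61 ± 0.43). VIT_215s0045g01490, a caffeic acid O-methyltransferase by annotation, went the other way at E-L 31, with 9.01 FPKM in T2 and 29.1 in T1 (1.59 ± 0.17). Both were named for the largest fold change of the list at that stage, so the values are a description.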
